A study of Mus musculus with 46 samples.

Results

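Glutathione S-transferases, UDP-glucuronosyltransferases and sulfotransferases were followed through every comparison of a series on Falcor, a long noncoding RNA listed as 9030622O22Rik, and on the zinc finger protein ZC3H11A. The members were all genes whose symbol begins with Gsta, Gstk, Gstm, Gsto, Gstp or Gstt, Mgst, Ugt1a to Ugt3b or Sult and goes on with a number, pseudogenes left out, with a mean of at least 3 in a table. Of 55774 rows in 3 tables and 56775 in the fourth, 67 names matched in each table. A mean of at least 3 was reached by 24 of them in the inducible AML12 lines, 38 in the conventional AML12 lines, 39 in livers on the diet labelled NCD and 36 in livers on the diet labelled HFD. In all, 48 genes were members in at least 1 table, 18 in every table, and 19 were below the limit in every table. The rule used mean levels over all libraries of a table and no test of a difference between groups. A gene high in 1 group could still become a member through that group. Gsta2 did so in the conventional lines (mean 6.67), through the Falcor hairpin libraries. The differences of such genes are not independent of the rule. Near its limit, Gstm4 at 3.83 was just inside and Sult1b1 at 2.06 just outside in the inducible lines, and Gsta5 at 3.67 and Gstm3 at 2.89 were so in the conventional lines. On NCD these were Ugt1a2 at 4.25 and Gsta1 at 2.62, and on HFD Gsta2 at 3 and Gstp2 at 2.82 (deposited means).

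The study asked what Falcor does in nuclear speckles, whether Falcor and ZC3H11A act on the same genes, and what loss of Falcor does in liver under normal and disease conditions. AML12 is a mouse hepatocyte line. In the inducible experiment it expressed either the shCtrl hairpin or one titled shLinc, which the sample tags link to Falcor. Both lines were sampled untreated (No Dox), with doxycycline (Add Dox) and in a state labelled Restored, and each of the 6 groups had 3 libraries. The conventional experiment used AML12 cells with hairpins against Falcor (shFalcor) or ZC3H11A (shZC3H11A) or the control shCtrl, again 3 libraries each. Livers were control or Falcor knockout (KO), 4 and 4 on NCD and 5 and 6 on HFD. The inducible control line was sampled in the same 3 doxycycline states as the Falcor hairpin line. Each gene was targeted by a single labelled hairpin per experiment, so differences between hairpins include any difference between the lines. The labels give no dose, duration, age, sex or strain, do not say how the knockout was made, and do not say whether replicates were separate cultures or animals. P-values therefore measure the spread between these samples, which may be technical.

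Conjugation is the step by which hepatocytes attach a polar group to drugs, hormones, bilirubin, bile acids and reactive lipids so that transporters can carry them out. Glutathione S-transferases (GST, and the membrane-bound MGST) add glutathione to electrophiles, UDP-glucuronosyltransferases (UGT) of the endoplasmic reticulum add glucuronic acid from UDP-glucuronate, and cytosolic sulfotransferases (SULT) add sulfate from PAPS. Many of these genes are known targets of the nuclear receptors CAR and PXR, of the aryl hydrocarbon receptor, or of NRF2, the factor of the antioxidant response.

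Many members lie in clusters of related genes, and some share much of their sequence. In the mm10 annotation, chr5:86889767-87591594 holds 13 of the matching genes in 0.702 Mb, from Ugt2b34 at 1 end to Sult1d1 and Sult1e1 at the other. Ugt2b34 (chr5:86889767-86906937) and Sult1d1 (chr5:87554645-87569027), both on the minus strand, are 0.648 Mb apart with 11 coding genes between them. Gstm1 (chr3:108012255-108017973, minus strand) is in the Gstm cluster of chromosome 3, Gstp1 (chr19:4035407-4037985, minus strand) beside Gstp2 and Gstp3, and Gsta3 (chr1:21240589-21265661, plus strand) apart from Gsta1, Gsta2 and Gsta4 on chromosome 9. Ugt1a6a (chr1:88134809-88218997) overlaps 9 other coding genes, 8 of them Ugt1a genes, since these use separate first exons and common last exons. Of 47 members with an annotated transcript, 16 shared more than 20% of their 31-base words with another gene and 12 shared under 1%. The shared part was 92.9% for Gsta1, 84.2% for Ugt1a6b, 67.8% for Ugt1a9, 60.7% for Gsta2, 53.0% for Ugt1a6a, 38.5% for Gstp1, 37.7% for Gstm3 and 28.8% for Gstm1. The reads of these members could be divided among copies by the authors' counting, and their single values are uncertain. Sult1d1 and Mgst1 shared 0.0%, Gsta3 2.68% and Ugt2b34 2.95%.

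The 250 bases before the RefSeq start (mm10) of 4 members are printed 5′ to 3′ on the gene's strand, to show the start region of 1 gene each of the alpha, mu, SULT and UGT groups whose values recur below. Capitals mark a match to TGACNNNGC, the core of the antioxidant response element, or to GCGTG, the core of the xenobiotic response element of the aryl hydrocarbon receptor, read on either strand. Windows are chr1:21240335-21240584 (plus) for Gsta3, chr3:108017974-108018223 (minus) for Gstm1, chr5:87569007-87569256 (minus) for Sult1d1 and chr5:86906938-86907187 (minus) for Ugt2b34.
Gsta3: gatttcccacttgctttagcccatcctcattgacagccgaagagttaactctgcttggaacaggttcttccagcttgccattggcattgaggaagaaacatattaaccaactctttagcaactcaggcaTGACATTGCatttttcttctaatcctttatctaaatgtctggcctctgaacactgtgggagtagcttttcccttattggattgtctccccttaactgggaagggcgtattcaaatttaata
Gstm1: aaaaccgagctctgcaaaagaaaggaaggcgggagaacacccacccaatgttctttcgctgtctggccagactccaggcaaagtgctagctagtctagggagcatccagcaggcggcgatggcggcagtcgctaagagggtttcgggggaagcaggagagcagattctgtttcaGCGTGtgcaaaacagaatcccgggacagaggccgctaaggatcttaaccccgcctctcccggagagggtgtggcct
Sult1d1: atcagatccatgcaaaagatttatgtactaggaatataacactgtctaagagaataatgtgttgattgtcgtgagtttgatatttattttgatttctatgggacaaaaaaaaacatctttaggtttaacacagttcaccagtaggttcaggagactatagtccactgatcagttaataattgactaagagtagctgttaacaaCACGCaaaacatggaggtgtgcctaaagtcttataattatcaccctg
Ugt2b34: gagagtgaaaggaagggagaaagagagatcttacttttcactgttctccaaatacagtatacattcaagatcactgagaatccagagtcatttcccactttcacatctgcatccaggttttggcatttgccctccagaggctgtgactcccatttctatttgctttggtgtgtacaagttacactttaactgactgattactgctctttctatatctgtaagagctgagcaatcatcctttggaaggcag
TGACNNNGC stood 121 to 113 bases before the start of Gsta3, GCGTG 76 to 72 bases before that of Gstm1, and GCGTG on the opposite strand (CACGC) 47 to 43 bases before that of Sult1d1. The Ugt2b34 window held neither. RefSeq gave 54 start windows for 43 of the 48 members. TGACNNNGC was in 4 of the 54 (7.41%) against 10.2% of all 32851 windows, and GCGTG in 11 (20.4%) against 28.2%. A match is a description of these letters and not of a binding site.

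Total counts of the conventional table were 4474760 to 8837581 per library. The other tables hold whole-number values of unstated unit that look scaled for length, with totals of 859568 to 883564 (inducible), 833910 to 872375 (NCD) and 918867 to 975752 (HFD), so their depth is unknown. A set of 3 identical rows held 22.4 to 78.2% of each HFD column, most in KO replicate 6, whose scale factor of 0.438 was the lowest in HFD. Falcor was listed at 0 in all 10 knockout livers and at 17 to 135 in the controls. It fell by 2.07 under the conventional Falcor hairpin and by 2.17 under the ZC3H11A hairpin (log2, edgeR adjusted p = 0.00242 and 0.00226). Zc3h11a fell by 3.03 under its own hairpin and by 0.75 under the Falcor hairpin (log2, edgeR adjusted p = 2.03e-05 and 0.0243). In the inducible lines Falcor was low everywhere. It held 12, 9 and 10 in the untreated Falcor hairpin line against 4, 6 and 5 in the untreated control line, and 2, 2 and 3 against 5, 4 and 5 with doxycycline. The untreated Falcor hairpin line thus had more Falcor than its control (log2 difference 0.75 ± 0.142 SE, limma adjusted p = 0.000188), and only with doxycycline had it less (−0.78 ± 0.142, adjusted p = 0.000218). Of 11 hepatocyte markers, Apoa2, Cps1, Asgr1 and Fgb were at 0 in every inducible library.

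Conjugation enzymes differed between the 2 inducible lines without doxycycline, mostly upward in the Falcor hairpin line. All 3 UGT members and most GST members were higher, by up to 1.06 and 0.88 in log2(value + 1), a scale on which low genes appear to differ less than they do, while Gstp1, Gsto1, Gstp3 and Gsta1 were lower. Of the 24 members tested, 15 were higher and 6 lower (limma adjusted p under 0.05), against 30.2% of all 9877 genes higher and 35.1% lower. The members' median difference was 0.46, beside −0.01 for all genes. The largest was that of Sult1d1, which sulfates catecholamines and related amines. Sult1d1 held 127, 144 and 117 in the control line and 441, 457 and 453 in the Falcor hairpin line (1.61 ± 0.0554, adjusted p = 2.97e-13), and the 2 groups lay far apart. Ugt1a6a and Ugt1a6b, which glucuronidate planar phenols and share their last exons, went from 35, 41 and 40 to 91, 89 and 87 (1.0 ± 0.0493) and from 28, 28 and 32 to 66, 66 and 69 (0.98 ± 0.0485). Ugt2b34, a UGT of the chromosome 5 cluster, held 3, 3 and 3 against 8, 8 and 9 (1.06 ± 0.0828), values so low that rounding to whole numbers limits them.

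Among GST genes, most mu-class genes were higher. Gstm1, the most abundant mu-class gene of the line, held 286, 310 and 305 against 531, 564 and 560 (0.69 ± 0.0327, adjusted p = 1.52e-11), Gstm2 differed by 0.66, Gstm7 by 0.88 and Gstm5 by 0.50, whereas Gstm4 at 3 to 6 did not pass (0.39, adjusted p = 0.0526). Gsta3, the main alpha-class gene of these cells, held 846, 840 and 840 against 1162, 1205 and 1254 (0.33 ± 0.0355), and Gstt1, a theta-class enzyme for small halogenated compounds, 43, 45 and 43 against 91, 88 and 95 (0.86 ± 0.0793). In each of these the 3 libraries of 1 line stood clear of the other 3. The opposite direction was seen in Gstp1, the pi-class enzyme and the highest member by deposited value, with 1532, 1431 and 1442 against 1222, 1260 and 1309 (−0.41 ± 0.0457). Gsto1, an omega-class enzyme with reductase activity, held 650, 640 and 642 against 455, 490 and 468 (−0.64 ± 0.0367), and the low Gstp3 and Gsta1 differed by −2.0 and −1.15. Without rescaling between libraries, which shifts the median of all genes to 0.16, 17 members were higher and 5 lower.

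**Figure D1:**
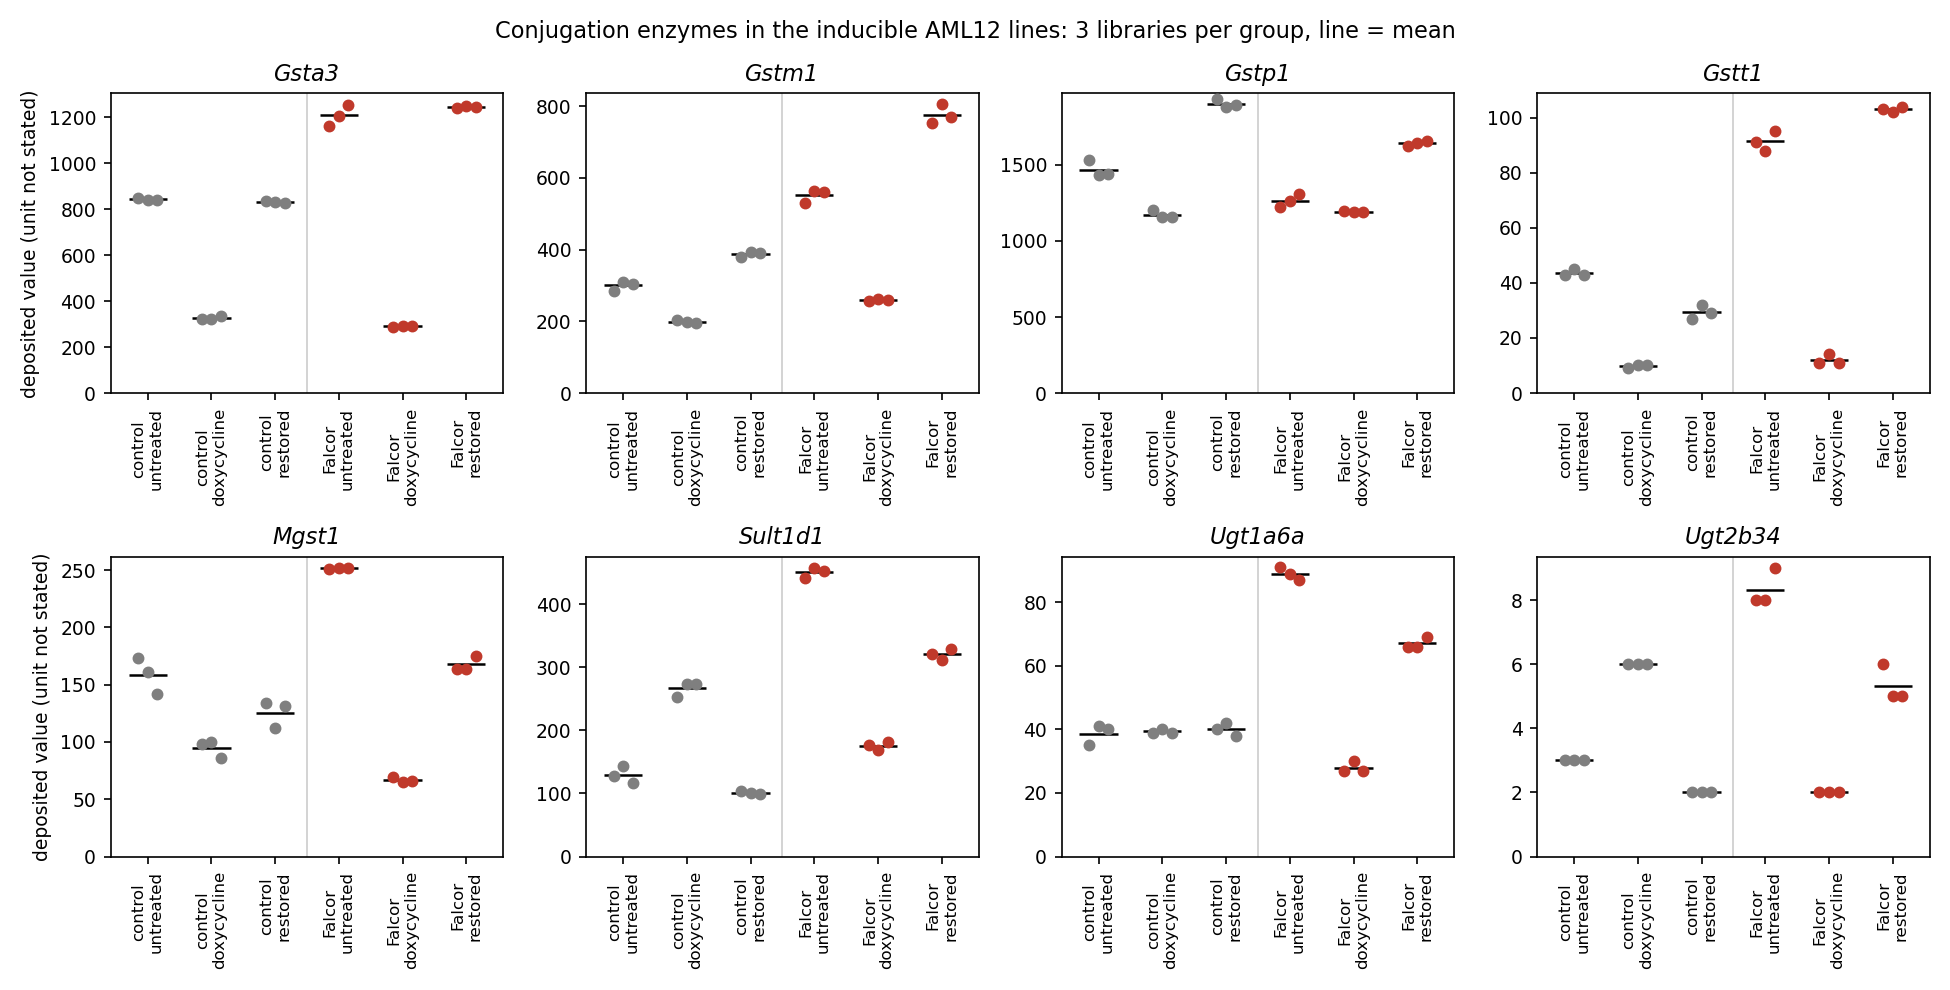
Deposited values (unit not stated, linear axes from 0) of 8 members in the inducible AML12 lines, 3 libraries per group as points and their mean as a line, control hairpin in grey and Falcor hairpin in red. Sult1d1, Ugt1a6a and Ugt2b34 are higher in the Falcor hairpin line without doxycycline and in the restored state and lower with doxycycline, and Gsta3, Gstm1 and Gstt1 are low with doxycycline in both lines.

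With doxycycline, the state in which Falcor was lower in its hairpin line, most members were lower there too. Of 24 members, 4 were higher and 14 lower, against 25.4% and 27.0% of all genes, and the members' median was −0.32 beside 0.004 for all genes. All 4 SULT members and all 3 UGT members were lower. Sult1d1 held 253, 274 and 274 in the control line and 177, 169 and 182 in the Falcor hairpin line (−0.59 ± 0.0554, limma adjusted p = 1.76e-07). Sult1c2, a sulfotransferase of phenols and hydroxyarylamines, held 40, 35 and 41 against 19, 20 and 21 (−0.91 ± 0.0579, adjusted p = 1.9e-09). Ugt2b34 was at 6 in each control library and at 2 in each Falcor hairpin library (−1.23 ± 0.0828), and Ugt1a6a and Ugt1a6b differed by −0.47 and −0.40. Sult1d1, Ugt2b34, Ugt1a6a and Ugt1a6b had the 4 largest positive differences in the untreated state, and all 4 were negative here.

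The GST genes were divided under doxycycline. Gstm1 held 205, 198 and 194 against 256, 261 and 260 (0.38 ± 0.0327, adjusted p = 6.11e-08) and stayed above its control, as did Gstm2 (0.32), Gstt1 (0.28) and Gstm5 (0.19, limma adjusted p = 0.0411). The Gstm5 call was lost when any of 5 of the 6 doxycycline libraries was left out, the exception being control replicate 3, with estimates of 0.15 to 0.20 in these fits. Gsta4, which conjugates the lipid peroxidation product 4-hydroxynonenal, was below it, with 39, 38 and 36 against 29, 27 and 30 (−0.38 ± 0.0435), and Gsta3 slightly so (−0.16 ± 0.0355). Both membrane enzymes with a call were lower, Mgst1 by 0.49 and Mgst3 by 0.47 on the log2 scale. Gstp1 at 1156 to 1203 in both lines differed by 0.03 ± 0.0457 (adjusted p = 0.62).

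In the restored state the Falcor hairpin line again stood above the control, with 17 members higher and 5 lower of 24, against 25.7% and 32.1% of all genes, and a median of 0.54 beside −0.02. Gstt1 held 27, 32 and 29 against 103, 102 and 104 (1.62 ± 0.0793, limma adjusted p = 2.43e-11) and Sult1d1 104, 101 and 99 against 321, 311 and 329 (1.49 ± 0.0554). Gsta4 held 54, 58 and 55 against 129, 134 and 132 (1.07 ± 0.0435), and Gstm1 differed by 0.84. Gsto1 (−0.79), Gstp1 (−0.37), Gstp3 (−1.46), Sult2b1 (−0.68) and Mgst3 (−0.33) were lower in the Falcor hairpin line here as they were untreated, although the untreated Mgst3 call was lost without rescaling (−0.11, adjusted p = 0.0985). Without rescaling the median of all genes in the restored state was 0.13, with 17 members higher and 5 lower. Sult2b1, which sulfates cholesterol, Gsto1, Gstp3 and Mgst3 were below the control in all 3 states. Gstm1, Gstm2, Gstm5 and Gstt1 were above it in all 3.

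Most conjugation enzymes were lower with doxycycline in the control hairpin line too, which has no Falcor hairpin and in which Falcor did not pass the test (−0.06, limma adjusted p = 0.737). There 3 members rose and 17 fell against the untreated state (34.0% and 32.5% of all genes), with a median of −0.54 beside 0.01. Gsta3 fell from 840 to 846 untreated to 323, 320 and 333 (−1.35 ± 0.0355, limma adjusted p = 7.83e-15). Gstt1 fell to 9, 10 and 10 (−2.05 ± 0.0793), and Sult1a1, the broad phenol sulfotransferase, from 12, 17 and 15 to 4, 3 and 4 (−1.73 ± 0.14). The 3 that rose were Gsta1, from 6, 7 and 6 to 29, 26 and 28 (1.99 ± 0.109), Sult1d1 (1.06 ± 0.0554) and Ugt2b34 (0.83 ± 0.0828). Ugt1a6a and Ugt1a6b did not pass (0.05 and −0.06, adjusted p = 0.413 and 0.288).

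In the Falcor hairpin line 3 members rose and 20 fell with doxycycline, against 38.6% and 35.6% of all genes, and the median was −1.33 beside 0.02. Gstt1 fell by 2.63, Gstt3 by 2.29, Gsta3 by 1.84, Mgst1 by 1.69, Gsta4 by 1.54 and Sult1c2 by 1.49 on the log2 scale. All 3 UGT members fell, Ugt1a6a from 87 to 91 down to 27, 30 and 27 (−1.43 ± 0.0493). Those that rose were Gsta1 (2.53), Gsto1 (0.32) and Gstp1 (0.13, limma adjusted p = 0.0154), and the last of these turned to −0.08 (adjusted p = 0.0165) without rescaling and lost its call without replicate 2 of the untreated Falcor hairpin line (0.12). Without rescaling the median of all genes was −0.18, and 2 members rose and 21 fell.

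From doxycycline to the restored state the direction turned in both lines. In the Falcor hairpin line 21 members rose and 2 fell (34.2% and 38.0% of all genes), with Gstt1 up by 2.84, Gsta4 by 1.99, Gsta3 by 1.92 and Sult1c2 by 1.55, and with Gsta1 (−1.22) and Gsto1 (−0.61) down. Without rescaling the count was 22 and 2, with a median of all genes of 0.14. In the control line 16 rose and 5 fell (39.6% and 34.2% of all genes). Gstt1 rose by 1.5 and Gstm2 by 1.37, while Gsta1 fell by 1.86, Sult1d1 by 1.40, Ugt2b34 by 1.25 and Sult1c2 by 0.29. Restored cells were not at the untreated level for every member. Against untreated cells, 3 members were higher and 10 lower in the control line (27.1% and 22.8% of all genes), with Sult1a1 at −1.16, Sult1c2 at −0.67 and Gstm2 at 0.48. In the Falcor hairpin line 7 were higher and 9 lower (28.5% and 23.8% of all genes), with Gsta1 at 1.31, Gstp3 at 0.91 and Gstt3 at −0.68. Gsta3 did not pass in either line (−0.01 and 0.08).

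The hairpin difference itself changed with doxycycline, as tested by the interaction. Between the untreated and the doxycycline state, 19 of 24 members changed in their hairpin difference, 4 upward and 15 downward, against 33.9% and 31% of all genes (64.9% either way). The largest shifts were those of Ugt2b34 (−2.29 ± 0.117, limma adjusted p = 5.06e-11) and Sult1d1 (−2.20 ± 0.0784, adjusted p = 8.32e-13), followed by Ugt1a6a (−1.47), Ugt1a6b (−1.38), Sult1c2 (−1.12), Gstt3 (−1.07), Mgst1 (−0.97) and Gsta4 (−0.96). Ugt2b34 and Sult1d1 rose with doxycycline in the control line and fell in the Falcor hairpin line. Ugt2b34 held only whole numbers from 2 to 9, the same in all 3 libraries of several groups. Rounding can therefore hide its spread, and its error and p-value are uncertain. With rows limited to a mean of at least 10 it was not tested. Shifts upward were Gstp3 (1.2), Gsta1 (0.53), Gsto1 (0.45) and Gstp1 (0.44). Set against the restored state, 18 members changed, 2 upward and 16 downward (31.7% and 28.8% of all genes, 60.5% either way), with Ugt2b34 at −2.18, Sult1d1 at −2.08, Sult1c2 at −1.84, Gsta4 at −1.45 and Gstt1 at −1.34. Without rescaling these counts were 4 and 18, and 2 and 18, with medians of all genes of −0.17 and −0.14. The 2 interactions share the doxycycline libraries, and the comparisons of each state share libraries with them.

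**Figure D2:**
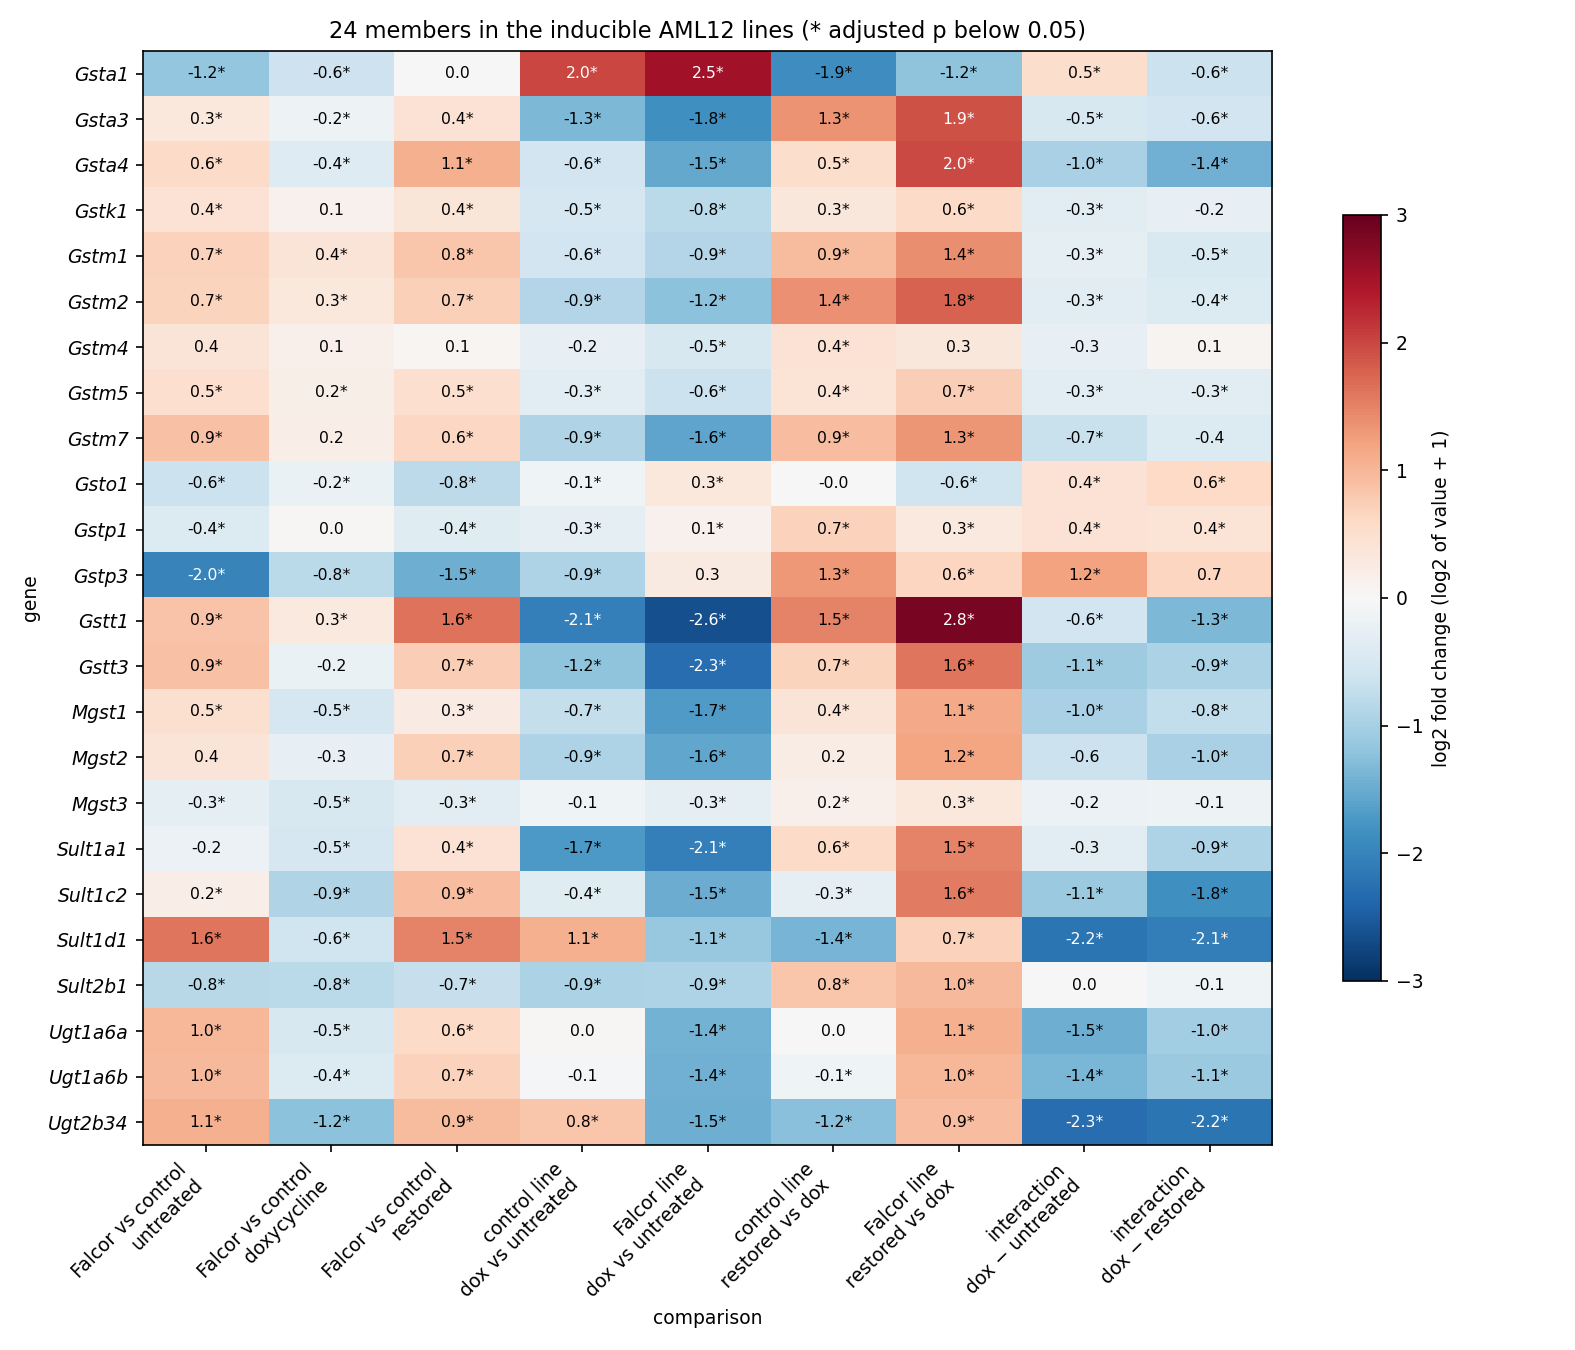
Log2 fold change (log2 of value + 1, limma) of the 24 members in 9 comparisons of the inducible lines, red for higher and blue for lower, with an asterisk at an adjusted p below 0.05. The 3 UGT members and Sult1d1 are red in the untreated and restored hairpin comparisons and blue under doxycycline, and most GST members are blue for doxycycline against untreated in both lines.

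Within each state, summed hepatocyte markers differed between the 2 lines in the direction of most members, whereas with doxycycline in the control line they moved the opposite way. Their summed level (11 genes, of which 4 reached a mean of 3, scaled values) was 540.1 to 573 in the untreated control line, 1200 to 1249 in the untreated Falcor hairpin line, 788.1 to 809.4 and 464.8 to 477.4 with doxycycline, and 644.9 to 660.4 and 1378 to 1417 restored. Most of that sum was Ttr, which held 416, 393 and 406 against 1131, 1175 and 1215 untreated as deposited. Apob and Hnf4a were higher there too, whereas Alb went the other way, with 56, 64 and 62 against 49, 49 and 48. In the control line 4 of the 4 markers tested rose with doxycycline and 0 fell (median 0.62), against 34.0% and 32.5% of all genes. From doxycycline to the restored state 0 rose and 3 fell (median −0.92), against 39.6% and 34.2% of all genes. Summed cholangiocyte markers were lower in the Falcor hairpin line in each state, with 1444 to 1589 in the control line against 1354 to 1372 untreated. Markers of hepatocytes around the central vein went with most members in each state, with 471 to 473 against 1010 to 1023 untreated. In these bulk libraries, fewer cells of a kind and less RNA per cell cannot be told apart. The part of all these markers in the members' differences was not tested.

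Under the conventional hairpins, AML12 cells with the Falcor hairpin had less of most sulfotransferase and glucuronosyltransferase RNAs and more of several low GST RNAs. Of 38 members in the table, 33 passed the filter on low counts, and Gsta5, Gstp2, Sult5a1, Ugt1a10 and Ugt2b5 did not. Of the 33, 8 were higher and 14 lower than in the control hairpin (edgeR adjusted p under 0.05), against 25.5% and 26.0% of all 11871 genes, with a median of −0.55 (−0.64 over the 32 members with more than 3 counts in each group) beside −0.005 for all genes. The 8 include Gsta2, which met the limit on the mean only through the Falcor hairpin libraries. The call of Gsta2 is therefore not independent of the rule. With scaling by totals alone, 9 were higher and 14 lower, and the median of all genes was 0.14. None of the 5 SULT and 10 UGT members tested was higher, and 3 and 6 were lower. Sult1d1 had 1985, 1359 and 1134 counts in the control libraries and 187, 130 and 296 under the Falcor hairpin (log2 fold change −2.86 ± 0.113, adjusted p = 1.53e-11). Its groups did not come near each other. Sult1a1 went from 62, 31 and 38 counts to 6, 10 and 12 (−2.17 ± 0.277) and Sult1b1 from 24, 14 and 18 to 3, 5 and 7 (−1.84). Among UGT genes, Ugt1a6a went from 1936, 1304 and 1493 to 670, 471 and 841 (−1.23 ± 0.0785), Ugt1a6b fell by 1.25, Ugt1a7c by 1.32 and Ugt2b35 by 1.63 on the log2 scale. Ugt2b36 went from 92, 54 and 68 counts to 26, 2 and 12 (−2.37). Ugt2b34, the UGT with most counts, fell by 0.32.

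Among GST genes, Gstp1, Gstm1, Gstm2 and Gsta3 fell under the Falcor hairpin, and others of both high and low counts did not. Gstp1, with 7542, 5233 and 5582 counts in the control libraries, had 2322, 1664 and 3200 (−1.34 ± 0.0688, edgeR adjusted p = 3.57e-11). Gsta3 went from 2142, 1207 and 1475 to 651, 404 and 782 (−1.36 ± 0.0924) and Gstm1 from 5119, 3415 and 3560 to 1871, 1333 and 2852 (−1.0 ± 0.0596), and Gstm2 fell by 1.0. Gsto1, with 2485, 1354 and 1930 counts against 2020, 1440 and 2781, did not pass (0.14, edgeR adjusted p = 0.164), and Gsta4, with 1108, 696 and 846 against 1042, 674 and 1475, was higher by 0.27 after scaling. Rises among genes of lower count were those of Gsta1, from 37, 22 and 27 to 104, 85 and 83 counts (1.76 ± 0.268), Gsto2, an omega-class enzyme with dehydroascorbate reductase activity, from 55, 42 and 63 to 130, 120 and 211 (1.53 ± 0.195), Gstp3 (1.89) and Gstk1, the kappa-class enzyme of mitochondria and peroxisomes (1.08). Gsta2 had 1, 0 and 0 counts in the controls, 21, 13 and 25 under the Falcor hairpin and 0 in each ZC3H11A library. No fold is given for it, since the control total is within the counting floor. It met the limit on the mean only through the Falcor hairpin libraries. The Gstp3 call was lost without control replicate 1 (1.52) and that of Gstk1 without Falcor hairpin replicate 3 (0.82). Mgst3 was higher by 0.53 and Mgst1 lower by 0.55.

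The ZC3H11A hairpin gave 3 members higher and 14 lower of 33, against 24.2% and 24.3% of all genes, with a median of −0.53 (−0.35 over the 31 members with more than 3 counts in each group) beside 0.002. Gstm1 had 970, 618 and 769 counts (−2.12 ± 0.0628, edgeR adjusted p = 7.31e-14) and Gsta3 416, 287 and 284 (−2.04 ± 0.0973), both below every control library. Sult1c2 fell from 231, 114 and 138 counts to 14, 10 and 11 (−3.51 ± 0.217, adjusted p = 4.37e-10). Ugt2b36 had 4, 4 and 1 counts (−4.27 ± 0.598), Ugt2b35 fell by 1.49, Gstm2 by 1.33, Gstp1 by 1.01 and Mgst1 by 0.97 on the log2 scale. Ugt1a9 had 14, 31 and 15 control counts and 0, 3 and 0 under this hairpin, a total within the floor. The 3 that rose were Sult1a1, to 194, 154 and 167 counts (2.25 ± 0.197, adjusted p = 3.87e-08), Gstp3 (2.23) and Gsta1 (0.90, adjusted p = 0.0128, lost without ZC3H11A replicate 3, 0.77). Gstt1 with 8, 6 and 1 counts passed narrowly (−1.48, edgeR adjusted p = 0.0477, DESeq2 adjusted p = 0.101) and lost its call without any 1 of the 3 controls or of ZC3H11A replicates 1 and 3. Ugt1a6a and Ugt1a6b did not pass (−0.03 and 0.08, adjusted p = 0.741 and 0.565).

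Both conventional knockdowns were set against the same 3 control libraries, so the direct contrast shows where they differ. Falcor itself was low under both hairpins and did not pass between them (0.10 ± 0.62, edgeR adjusted p = 0.904). Of 33 members, 17 were higher and 8 lower under the Falcor hairpin than under the ZC3H11A hairpin, against 28.4% and 28.6% of all genes, with a median of 0.33 beside −0.01. With scaling by totals alone this was 17 and 7, and the median of all genes was 0.15. Among members with more than 3 counts in each group, Sult1a1 and Sult1c2 differed most, while Sult2b1 did not pass (−0.23, edgeR adjusted p = 0.453). Gsta2 had 59 counts in all under the Falcor hairpin and 0 under the ZC3H11A hairpin, and Ugt1a9 53 and 3, and no fold is given for either. Gsta2 is among the 17 and was a member only through the Falcor hairpin libraries, so its call is not independent of the rule. Sult1a1 was lower by 4.41 ± 0.246 and Sult1d1 by 2.51 ± 0.114 under the Falcor hairpin, while Sult1c2 was higher by 3.19 ± 0.221 (edgeR adjusted p = 6.64e-11, 4.38e-11 and 1.03e-09). Ugt1a7c (−1.73), Ugt1a6b (−1.32) and Ugt1a6a (−1.20) were lower and Gstm1 (1.13), Gsto2 (1.77) and Gsta3 (0.68) higher under the Falcor hairpin. Ugt2b34 and Ugt2b35 did not pass (−0.11 with a 95% interval of −0.27 to 0.04, and −0.14 with −0.59 to 0.31). Hepatocyte marker sums were 386.5 to 447 CPM in the controls, 117.5 to 144.2 under the Falcor hairpin and 494.9 to 634.9 under the ZC3H11A hairpin. Macrophage marker sums were 4.254 to 5.669, 49.75 to 52.2 and 6.493 to 8.577, with 2 of those 10 genes at a mean of 3 or more and Clec4f, Timd4 and Marco at 0 in every library. The part of either in the members' differences was not tested.

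**Figure D3:**
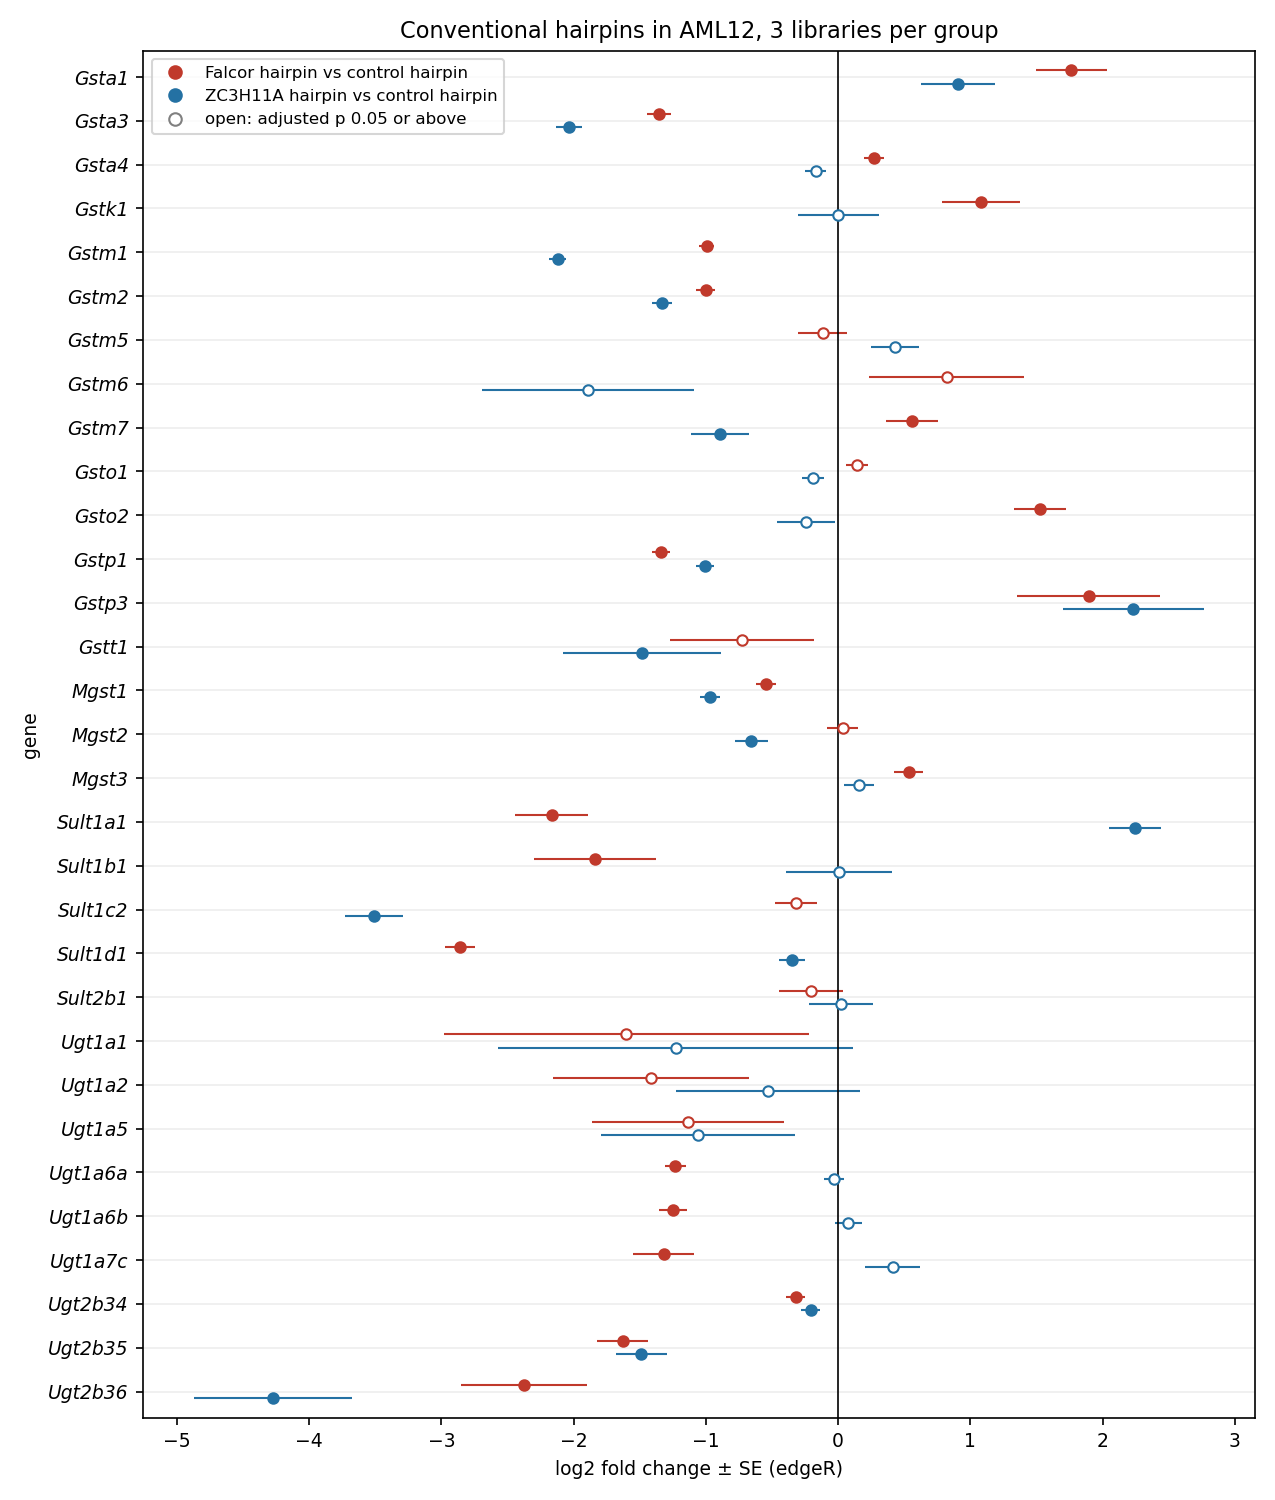
Log2 fold change with its standard error (edgeR) of members under the conventional Falcor hairpin (red) and ZC3H11A hairpin (blue) against the shared control hairpin, 3 libraries per group, filled where the adjusted p was below 0.05. Sult1d1 and the Ugt1a6 genes lie further left for the Falcor hairpin, Sult1c2 lies further left for the ZC3H11A hairpin, and Sult1a1 lies on opposite sides; members with a group total of 3 counts or fewer are left out.

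By deposited value in liver, Gstp1 (mean 3404), Mgst1 (3213), Gsta3 (1291) and Gstm1 (1040) led on NCD, and Ugt2b5 (436) and Ugt1a1 (402), the bilirubin-conjugating enzyme, were the highest UGT genes. Sult1a1 (172.5) and Sult2a8 (159.9), a hepatic sulfotransferase of bile acids, were the highest SULT genes. Gstp1 held 2831, 3405, 3357 and 3733 in the controls and 2817, 3611, 3857 and 3624 in the knockouts, and Mgst1 2128, 2476, 3100 and 4077 against 3404, 3664, 3604 and 3250. These most abundant members overlapped between the genotypes and did not pass.

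On NCD, 6 of 39 members were higher in knockout livers and 0 lower, against 4.16% of all 9536 genes higher and 1.81% lower, and 35 of 39 estimates were above 0 (median 0.33 beside 0.04 for all genes). At an unadjusted p under 0.05 there were 21 members of 39, against 29.8% of all genes. In 9 members the scaled values of the 4 knockouts all lay above the 4 controls, and in 0 members below, against 12.4% and 6.89% of all genes. The 6 were the mu-class genes Gstm1 and Gstm3, the theta-class gene Gstt2, Sult2a8, Ugt1a6b and Ugt2b36. Gstm1 held 526, 666, 764 and 775 in the controls and 1429, 1261, 1237 and 1664 in the knockouts (0.85 ± 0.142, limma adjusted p = 0.0318). Gstm3 held 18, 18, 32 and 27 against 60, 54, 60 and 59 (1.11 ± 0.177, adjusted p = 0.0314) and Sult2a8 96, 113, 103 and 133 against 214, 176, 205 and 239 (0.71 ± 0.113, adjusted p = 0.0314). In all 3 of these, each knockout was above each control. Ugt2b36 held 115, 140, 138 and 214 against 331, 252, 262 and 346 (0.80 ± 0.188), Ugt1a6b 49, 59, 64 and 73 against 97, 98, 92 and 102 (0.48 ± 0.112) and Gstt2 10, 12, 12 and 17 against 25, 18, 28 and 32 (0.77 ± 0.172). The groups of Gstt2 overlapped after scaling. Some larger differences did not pass. Gsta2 held 6, 6, 7 and 16 against 45, 17, 15 and 40 (1.41, limma adjusted p = 0.0833), with overlap after scaling. Ugt1a9 held 3, 6, 10 and 6 against 16, 13, 14 and 23 (1.16, limma adjusted p = 0.0534), with each knockout above each control.

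The NCD calls were lost without any of 7 of the 8 livers. Leaving out any of the controls Ctrl-2, Ctrl-3 and replicate 3, or any of the 4 knockouts, left 0 members called and 6 to 33 genes of the whole table, whereas leaving out control replicate 4 kept all 6 and gave 18 members and 1697 genes. In the 7 omissions without a call, Gstm1 kept estimates of 0.76 to 0.91 with adjusted p-values of 0.0575 to 0.0976. Without rescaling 21 members were higher and the median of all genes was 0.21, with median-of-ratios factors 4 were higher, and with no filter on low values 3, Gstm1, Gstm3 and Sult2a8. Summed levels of 10 pericentral hepatocyte markers, which mark the zone around the central vein where many conjugation enzymes are known to be high, were 3487 to 4512 in controls and 5174 to 5763 in knockouts. Most of that sum was Cyp2e1 (2246 to 2983 and 3862 to 5055 as deposited), and of the 8 markers tested 1 was higher and 0 lower, with a median of −0.05. Hepatocyte markers summed to 39210 to 52170 and 49530 to 69160, with 2 of 11 higher and a median of 0.03. Male-biased genes summed to 16690 to 30580 and 16530 to 22390, and female-biased ones to 9.592 to 22.76 and 12.76 to 44.85. Xist was at 0 in every NCD liver, and the 4 Y-linked genes summed to 18.51 to 23.45 in controls and 25.19 to 31.53 in knockouts, without overlap. The part of these in the result was not tested.

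**Figure D4:**
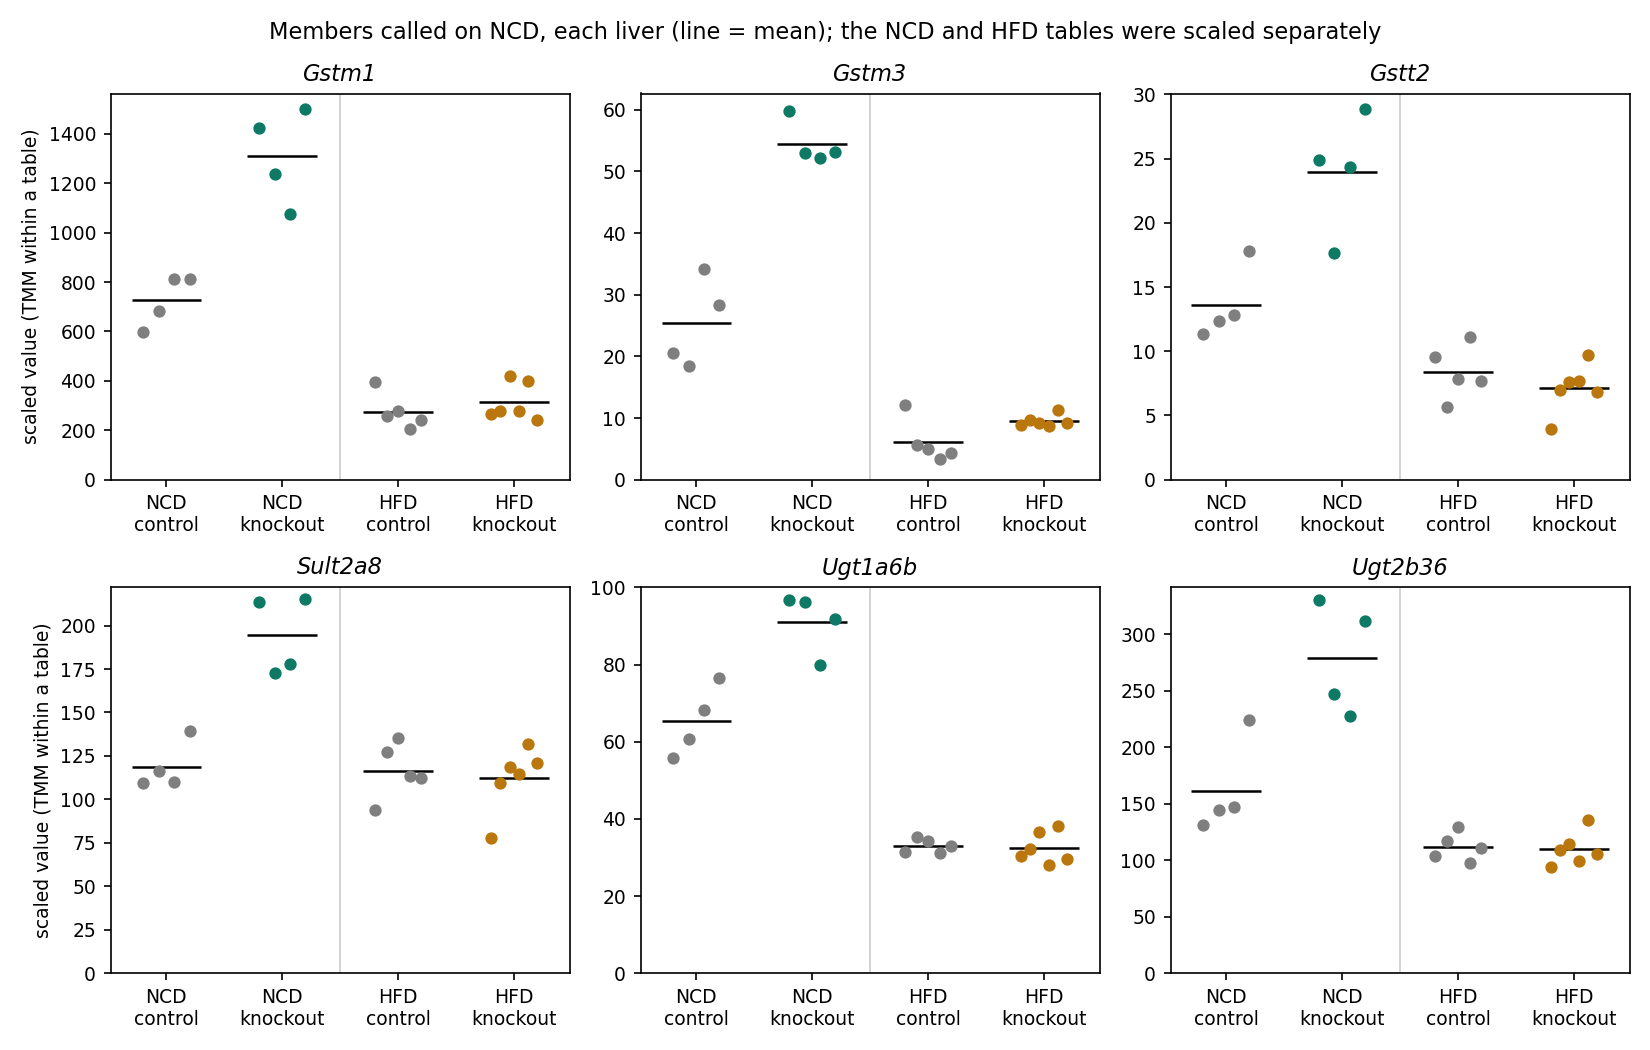
Values scaled within each table (linear axes from 0) of the 6 members called on NCD, each liver as a point and the group mean as a line, controls in grey and knockouts in colour. Knockouts stand above controls on NCD, with overlap in Gstt2, and the HFD groups overlap in all 6; the 2 tables were scaled separately and their levels are not compared.

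On HFD no member passed (limma; 0 of 36, against 0.0324% of 6176 genes higher and 0.0162% lower, 3 genes in all), and 10 of 36 members had an unadjusted p under 0.05, against 12.3% of all genes. The signs leaned the other way, with 8 estimates above 0 and 28 below (median −0.13 beside 0.02). In Gstk1, Gstt1, Gstt3 and Mgst1 all 6 knockouts lay below all 5 controls after scaling, and in 0 members above, against 0.745% of all genes below and 1.55% above. Gstt1 had scaled values of 111.3, 88.58, 83.02, 89.86 and 78.08 in the controls and 49.1, 60.27 and 72.51 in the knockouts (lowest, median and highest of 6; −0.58 ± 0.115, adjusted p = 0.105). Gstt3, a lowly expressed theta-class gene, had 17.39, 9.085, 7.873, 9.984 and 5.499 against 2.282, 2.993 and 4.368 (−1.34 ± 0.223, adjusted p = 0.0582). Mgst1, the microsomal enzyme and the highest member on HFD, had 1801, 1783, 1814, 1585 and 1596 against 1344, 1394 and 1563 (−0.27, adjusted p = 0.177). Gstt3 passed as lower in the knockouts without Ctrl-1 or without control replicate 5. Gstm3 also passed without Ctrl-1, but as higher in the knockouts. Without KO replicate 6, 0 members were called. Gstm1 had 205.2 to 395.6 in controls and 239.6 to 418.7 in knockouts, and Gstm3 8.673 to 11.33 in knockouts against 3.328 to 12.17.

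The knockout difference on HFD minus that on NCD was below 0 in 35 of 36 members, with a median of −0.48 beside −0.04 for all genes. It passed in 10 members, all downward, against 4.62% of 6128 genes downward and 2.51% upward. They were Ugt1a9 (−1.56 ± 0.402, adjusted p = 0.0301), Gstt3 (−1.17 ± 0.294), Gstt2 (−0.99 ± 0.26), Sult1a1 (−0.92 ± 0.257), Ugt2b36 (−0.83 ± 0.214), Sult2a8 (−0.77 ± 0.177, adjusted p = 0.0218), Gsta3 (−0.75 ± 0.188), Gstt1 (−0.61), Ugt1a6b (−0.51) and Ugt2b34 (−0.41). These adjusted p-values come from the difference of the 2 limma estimates. Sult2a8 shows the pattern (−0.06 on HFD against 0.71 on NCD). Its scaled values on HFD were 93.89 to 135.3 in the controls, with a median of 113.2. In the HFD knockouts they were 77.57 to 131.9, with a median of 116.6. The count fell to 0 without Ctrl-2, Ctrl-3, KO replicate 1 or KO replicate 4 of NCD and to 1 without control replicate 3, and rose to 23 without control replicate 4. It was 5 without Ctrl-1 of HFD, and 4 without KO replicate 2 of NCD, 6 without control replicate 3 of HFD and 7 without KO replicate 6 of HFD. With no filter on low values it was 5, and without rescaling 2, Ugt1a9 and Gstt3. On HFD, stellate cell and fibroblast markers summed to 34.07 to 54.77 in controls and 20.54 to 32.68 in knockouts, without overlap, and on NCD to 69.15 to 89.46 and 80.73 to 108.9. In the difference between diets, 2 of the 2 tested were lower (median −0.74). Hepatocyte markers summed to 23330 to 30220 and 20600 to 28820 on HFD and pericentral ones to 2398 to 3091 and 2435 to 3238, and 1 of 11 and 1 of 7 were lower in the difference between diets (medians −0.33 and −0.29). Periportal markers summed to 1906 to 2291 and 1443 to 2176 on HFD, with 0 of 8 called in that difference (median −0.47). The part of these markers in the result was not tested. The diets were deposited and scaled as separate tables, so diet cannot be told apart from any other difference between the tables.

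**Figure D5:**
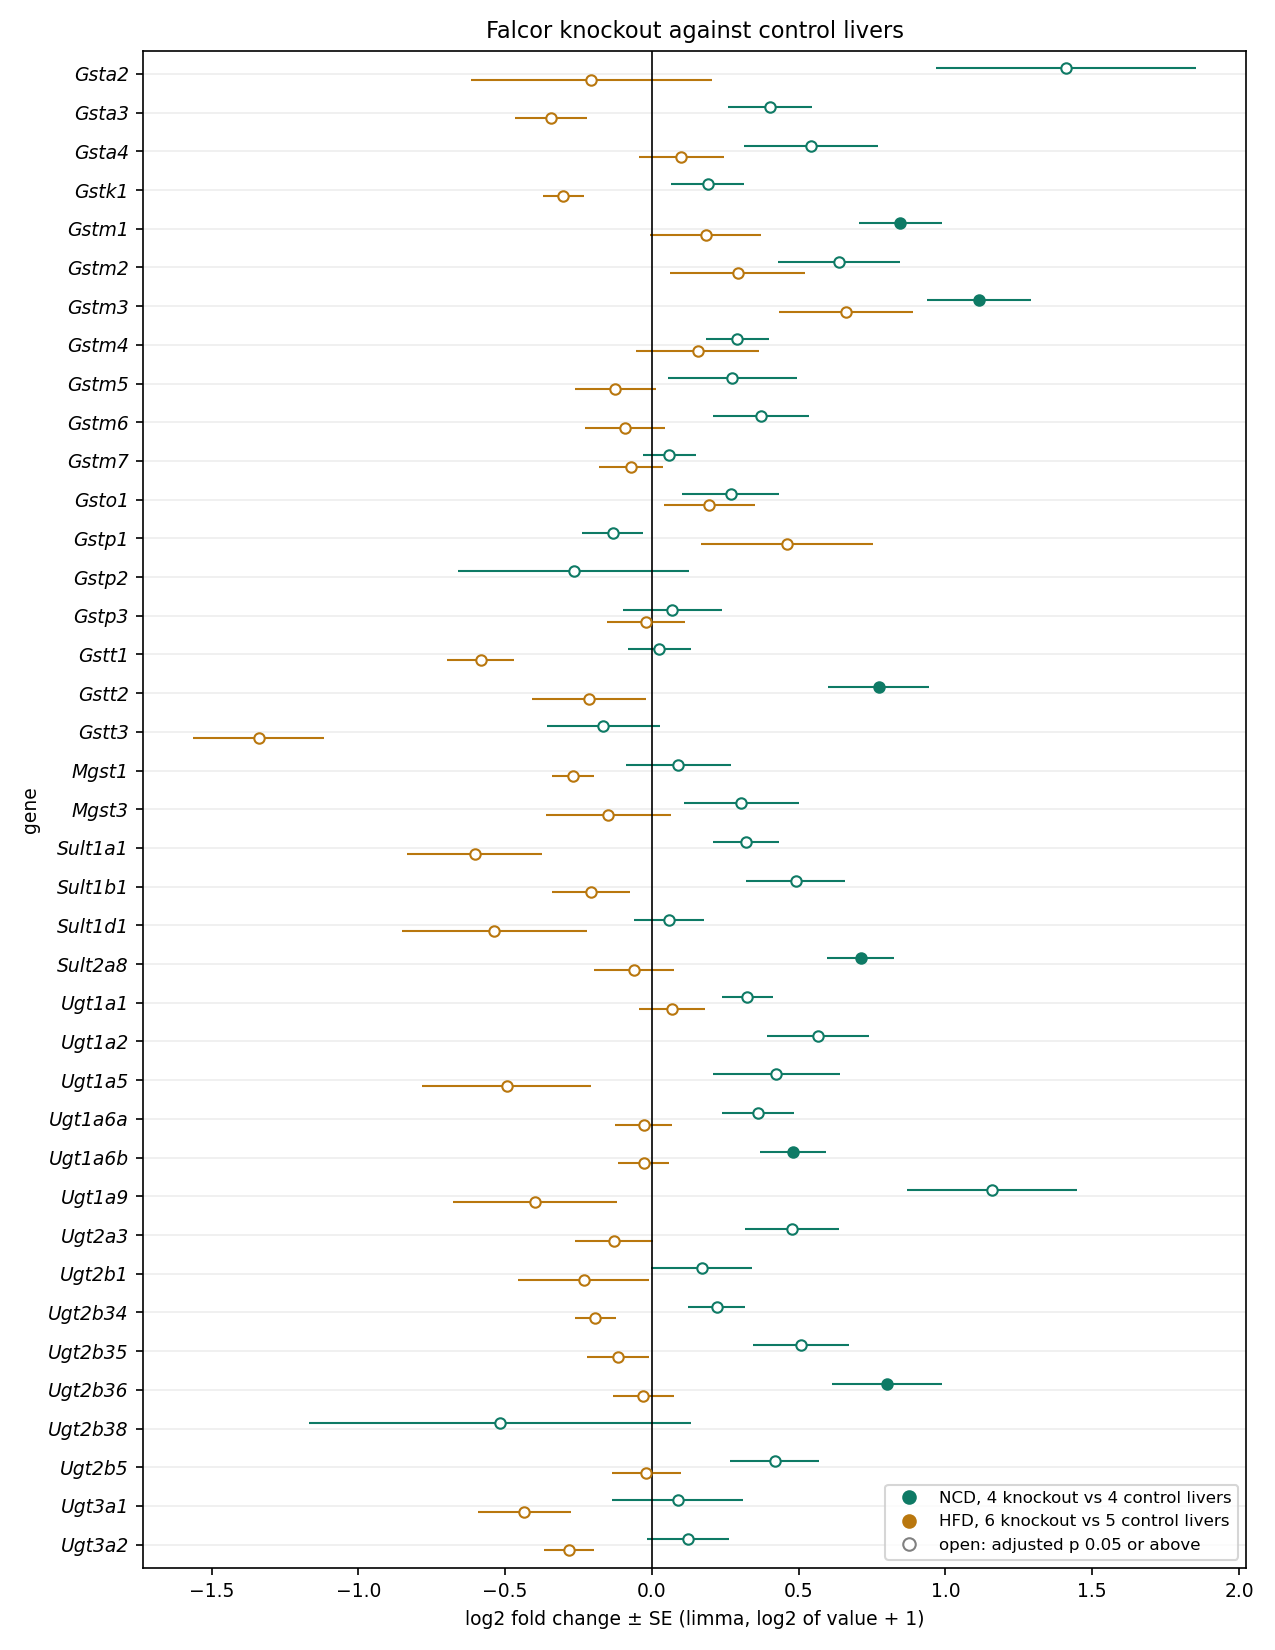
Log2 fold change with its standard error (limma, log2 of value + 1) of members in knockout against control livers, NCD in green (4 against 4) and HFD in brown (6 against 5), filled where the adjusted p was below 0.05. Most NCD points lie right of 0 and most HFD points left of it, and the 6 filled points are all NCD.

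Genes that feed or serve conjugation were followed as fixed lists. Of all genes, 30.2% were higher and 35.1% lower in the untreated Falcor hairpin line, and 25.4% and 27.0% with doxycycline. Under the conventional Falcor hairpin these shares were 25.5% and 26.0%, and under the ZC3H11A hairpin 24.2% and 24.3%. Of 12 tested genes of glutathione supply, 0 were higher and 8 lower under doxycycline in the Falcor hairpin line (median −0.26 beside 0.004 for all genes), among them Gsr, glutathione reductase (−0.58), and Gclc and Gclm, the subunits of the rate-limiting synthetic enzyme (−0.49 and −0.28). In the untreated state 3 were higher and 4 lower, with Cth, the cysteine-forming enzyme, at −2.38. Under the conventional Falcor hairpin 6 of 14 rose and 5 fell, Gclm by 2.7 and Gclc by 1.34, and under the ZC3H11A hairpin 2 rose and 7 fell. Ugdh, which makes UDP-glucuronate, differed by −0.81 under doxycycline and by −0.94 and −0.69 under the conventional Falcor and ZC3H11A hairpins, and Ugp2, which makes its precursor, by −0.69, −1.56 and −0.30. Of 10 genes of PAPS supply and sulfate removal, 0 rose and 7 fell under the conventional Falcor hairpin (median −0.78 beside −0.005), and 3 rose and 3 fell under the ZC3H11A hairpin, with the PAPS synthase Papss2 down by 2.43.

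Regulators, NRF2 targets and transporters did not form a single pattern. Targets of CAR, PXR and the aryl hydrocarbon receptor are not counted here. Nr1i3 and Nr1i2, the genes of CAR and PXR, were at 0 in every inducible library. So were the CAR and PXR target genes Cyp2b10, Cyp3a11 and Cyp2c29, while Cyp3a13 and Por of the same list were not. Of 18 transcription factors tested in the inducible lines, 12 were higher and 3 lower in the untreated Falcor hairpin line (median 0.35 beside −0.01). Of all genes 30.2% were higher and 35.1% lower. With doxycycline 5 were higher and 4 lower in that line, against 25.4% and 27.0% of all genes. With doxycycline against untreated in that line, 3 rose and 11 fell (38.6% and 35.6% of all genes). Among those that fell were Cebpa (−1.51) and Foxa3 (−1.9), both hepatocyte factors. Under the conventional Falcor hairpin 0 of 19 rose and 11 fell (25.5% and 26.0% of all genes), with Foxa2 at −1.48, Hnf4a at −1.07 and Ppara at −1.1. Under the ZC3H11A hairpin 4 rose and 7 fell (24.2% and 24.3% of all genes), with Hnf4a at 0.68. NRF2 targets other than the members were split, 4 higher and 10 lower of 18 with doxycycline and 8 higher and 6 lower under the conventional Falcor hairpin, where the heme oxygenase gene Hmox1 rose by 1.5 while Osgin1 fell by 1.49. Transporters of conjugates were 5 higher and 2 lower of 8 under the conventional Falcor hairpin, led by Abcc2, the canalicular efflux pump (1.97), and 1 higher and 6 lower under the ZC3H11A hairpin. In NCD livers 4 of 10 transporters were higher and 0 lower, against 4.16% and 1.81% of all genes. They were the uptake carriers Slco1b2 (0.64), Slco1a1 (0.57) and Slco1a4 (0.97) and the pump Abcc2 (0.69). Nfe2l2, which encodes NRF2, was higher by 0.59 (limma adjusted p = 0.0318), with Gclc at 0.64 and Gclm at 0.57. The activity of NRF2 was not tested, and no count of its targets is given for these livers. Of 12 tested genes of glutathione supply, 2 were higher and 1 lower there (median −0.09 beside 0.04 for all genes). The NCD omissions that left no member called left 6 to 33 genes called in all. On HFD no gene of these lists passed. The lists were chosen with earlier results known, so their counts are descriptions.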

How the data were processed

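Bulk RNA was sequenced from 46 libraries, 27 of AML12 cells and 19 of mouse livers. They were ribo-depleted and strand-specific, per the labels' protocols. Tools listed without a version or role in the submitters' processing notes are kallisto and DESeq2, and the build is mm10. The conventional hairpin table holds counts per gene as deposited by the authors. The other 3 tables hold a score as deposited by the authors, whole numbers whose unit is not given in the sources used here. Their totals were nearly equal and below those of counts, so depth is unknown and counting error cannot be given. Ugt2b34 (longest transcript 4312 bases) held 3 in each untreated inducible control library and 292.1 to 363.4 CPM in the conventional controls. Gstp1 (821 bases) held 1431 to 1532 and 872.6 to 931.7 CPM. These values come from different lines and do not establish the unit.

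Scores were rescaled by TMM factors, taken to log2(value + 1), and tested with limma 3.58.1 (trend, robust) over rows with a mean of at least 3. Counts were tested with edgeR 4.0.16 (quasi-likelihood, robust, filterByExpr, TMM) in R 4.3.3. Values per library are as deposited unless called scaled. Errors beside log2 values are standard errors. Each table was fitted with all its groups, and p-values were adjusted over all rows tested (Benjamini-Hochberg, threshold 0.05). The difference between diets is that of the 2 limma estimates, with Welch-Satterthwaite degrees of freedom. On simulated data, 2-fold changes were recovered in 97.5% of changed genes for the untreated inducible hairpin comparison (9758 genes), 71.6% for the conventional Falcor comparison (11623 genes), 76.4% on NCD (9302 genes) and 81.9% on HFD (5882 genes).

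In each comparison the members named were called ones, at most the 10 largest in each direction, and members named elsewhere. Of each list at most 4 called genes with the smallest p were named. Members and lists were chosen with earlier results of these data known. Alternatives were a pseudocount of 0.5, a mean of at least 10, no filter, other scalings, DESeq2 1.42.0 for counts, a replicate block and leaving out each library. Of the liver columns, 4 controls have names that match the group and no numbered sample, and are given by column name. A count of 3 or fewer in a group gives no fold.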

Additional observations from a re-analysis of the deposited data

Results flagged for a closer look

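Single livers stood apart from their group in 16 of 150 tested groups of members (10.7%), where chance gives about 1 in 20. Values are scaled within each table. On NCD, control replicate 4 was the high one for Gsta2 (16.76 against 6.169 to 7.46), Gstk1 (67.06 against 44.38 to 47.96), Ugt2a3 (91.16 against 58.62 to 60.67), Ugt3a1 (44.01 against 22.38 to 25.03) and Ugt3a2 (171.8 against 113.1 to 122.9). This is the liver whose omission raised the NCD calls to 18. Control replicate 3 was high for Gstp3 (46.89 against 33.93 to 35.62) and low for Sult1d1 (13.85 against 17.48 to 18.21). Among the NCD knockouts, replicate 1 was high for Gstm3 (59.8 against 52.12 to 53.15) and Ugt1a1 (468.5 against 430.6 to 435.2) and low for Gstp3 (27.91 against 42.34 to 45.17). On HFD, Ctrl-1 was high for Gstm3 (12.17 against 3.328 to 5.678), Ugt1a5 (39.99 against 9.898 to 14.76) and Ugt1a9 (7.824 against 3.299 to 3.579), and Ctrl-2 for Ugt1a6a (29.53 against 25.77 to 26.62). Knockout replicate 5 was high for Gstm3 (11.33 against 8.673 to 9.61) and replicate 6 for Gstp3 (9.128 against 6.746 to 7.283). As deposited, Gstp3 held 7, 8, 9, 7, 9 and 4 in the HFD knockouts, with replicate 6 the lowest. Its flag as high arose only after scaling by that library's factor of 0.438, where rounding weighs most.

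The hairpin difference of 19 members differed between the doxycycline and the untreated state by the interaction test. The largest shifts were in Ugt2b34 (−2.29, at deposited values of only 2 to 9), Sult1d1 (−2.2), Ugt1a6a (−1.47), Ugt1a6b (−1.38) and Gstp3 (1.2). It differed for 18 members between the doxycycline and the restored state, led by Ugt2b34 (−2.18), Sult1d1 (−2.08), Sult1c2 (−1.84), Gsta4 (−1.45) and Gstt1 (−1.34). In liver the knockout difference was lower on HFD than on NCD for 10 members, led by Ugt1a9 (−1.56), Gstt3 (−1.17), Gstt2 (−0.988), Sult1a1 (−0.924) and Ugt2b36 (−0.83).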

How the results depend on the processing

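Of 2750 recomputed values of the 218 named differences, 2546 kept their direction and side of the threshold, 203 kept the direction only and 1 reversed, Gstp1 with doxycycline against untreated in the Falcor hairpin line without rescaling (−0.0828). In AML12 the number of members called stayed within 1.5 times under every alternative run. In NCD livers (6 members) no filter left 3, no rescaling gave 21, and leaving out 1 liver gave 0 to 18. In HFD livers (0 members) no filter and no rescaling each gave 1, Gstt3, and leaving out 1 liver gave 0 to 2. For the difference between diets (10 members) these gave 5, 2 and 0 to 23. The cause was not tested. Same-numbered libraries did not deviate together in all pairs (inducible r −0.26 to 0.36, 13 of 45 over 0.1, and conventional −0.048 to 0.16, 2 of 9 over 0.1). With the number as a replicate block, the members called were 21 untreated, 17 with doxycycline (Gstm5 lost, limma adjusted p = 0.051), 22 restored and 22, 18 and 25 in the conventional comparisons. No paired analysis was possible for the livers because 4 control columns carry no replicate number. Unknown depth in 3 tables limits low members, where a step of 1 is a large part of the value.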
